A study of Mus musculus with 109 samples.

Results

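The stretch of mouse chromosome 16 from 60 to 83 Mb (mm9 build) is a long gene-poor region that holds the axon guidance receptor genes Robo1 and Robo2 near its middle and the neural adhesion gene Ncam2 near its distal end. It was taken by its coordinates and holds 7535 of the 823352 HindIII sites of the count table, and of the 30962 on chromosome 16. Each HindIII site is a fragment end that can be ligated to a bait, and a site with 1 read or more is called captured here. The 23 Mb carry 37 protein-coding genes, or 1.61 per Mb, against 6.80 per Mb over the whole chromosome, and 19 of its 46 bins of 500 kb touch none. The median GC content of those bins was 36.9% (35.1% to 41.6%), against 41.9% in the rest of the chromosome, while the median number of HindIII sites per bin was nearly equal, at 163.5 and 164.

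4C-seq, a form of chromosome conformation capture on circular ligation products, reads out which sites of a genome lie close to 1 chosen locus, the bait, in a population of crosslinked nuclei. Chromatin falls into compartments: gene-dense, early replicating stretches contact each other, and gene-poor, late replicating stretches contact each other, over and above the general decay of contacts with distance. Gene deserts around neuronal adhesion genes are textbook members of the second kind in cells that do not express these genes. The study used C127, an established mouse mammary epithelial line, with cultures arrested in mitosis with nocodazole and released into G1 for a series of times, released longer into G2, or held in G0 by serum starvation, and it asked when long-range contacts return after mitosis. There is no genetic alteration or untreated control among the libraries, and every value is an average over a culture of 1 cell line.

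Libraries are grouped by where their reads lie and not by title. Of the 39 libraries titled as chromosome 16 or 17 baits or as 1.5 h after mitosis, 35 had most reads beside another bait than the titled one and 4 matched. Reads within 100 kb of the located bait exceeded those of the next bait by at least 11.9 times, and 28 libraries lay at the 4 chromosome 16 baits, 7 at each. Titled times were not used, so the 7 libraries of a bait may span several cell cycle stages, and libraries 1 to 7 are numbered in table order, which only names them. Nothing says which of them came from separate cultures, so p-values measure the spread between these libraries, and libraries of different baits may share cultures. Total reads ran from 182669 to 3301246. At every bait libraries 1 and 2 were shallow, with 182669 to 278667 reads over the 4 baits, and libraries 3 to 7 were deep, with 1138984 or more, and 63.1% to 87.7% of reads lay on chromosome 16. Some libraries of a bait shared more captured sites on other chromosomes than most pairs did: 1 of 21 pairs at B30, 1 at B41, 4 at B46 and 2 at B48 exceeded 2 times the bait's median excess over chance, so results are also given without 1 library of each such pair. The median excess itself was 2.05 times chance at B30, 4.62 at B41, 3.14 at B46 and 2.52 at B48. The cut is therefore highest at B41, where pairs of up to 8.98 times chance stayed below it.

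All 4 baits lie proximal to the desert. B30 starts 29.4 Mb from it, 4566 bp from Fam43a, in a bin of 47.0% GC with 9 protein-coding genes within 500 kb. B41 starts 19.1 Mb from it, in a bin of 37.5% GC, 612996 bp from Lsamp (an adhesion protein of the limbic system) and with 0 genes within 500 kb. B46 lies 14.2 Mb from it in an intron of Phldb2, in a bin of 41.2% GC, with 12 genes within 500 kb. B48 lies 11.4 Mb from it in an intron of Morc1, in a bin of 39.4% GC, with 11 genes within 500 kb. B46 and B48 are only 2.76 Mb apart. The primers that define the baits follow, on the plus strand of mm9 with the part of the HindIII site they hold in capitals, because every value below is a contact of 1 of these 4 fragments.

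B30, chr16:30595243-30595262: cggaaactcagcggtaAAGC
B41, chr16:40919975-40919993: aaggcacaggtagccAAGC
B46, chr16:45838128-45838147: gctacctaactgggcaAAGC
B48, chr16:48602104-48602122: ggctgtagcttagggAAGC

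Sites among those that recur most are shown with the HindIII site in capitals and 30 bases of plus-strand mm9 sequence on each side. For each bait this is, among the desert sites captured in all 7 of its libraries, the one with most reads.

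B30, chr16:66378728-66378793: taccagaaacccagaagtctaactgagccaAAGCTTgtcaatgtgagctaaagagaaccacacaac
B41, chr16:61829516-61829581: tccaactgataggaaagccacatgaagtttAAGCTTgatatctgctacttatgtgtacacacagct
B46, chr16:65823198-65823263: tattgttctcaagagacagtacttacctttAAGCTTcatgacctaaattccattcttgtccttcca
B48, chr16:66306725-66306790: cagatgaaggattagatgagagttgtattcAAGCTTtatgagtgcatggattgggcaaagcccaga

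Each of the 4 was captured in 7 of 7 libraries of its bait, as were 80 desert sites at B30, 901 at B41, 438 at B46 and 612 at B48. The B30 site is intergenic, 276908 bp from Cadm2, and gave 1051 B30 reads, and it was also captured in 6 B41, 7 B46 and 7 B48 libraries. The B41 site is intergenic, 902724 bp from Nsun3, with 1508 B41 reads, and was captured in 4 B30, 6 B46 and 7 B48 libraries. The B46 site lies in an intron of Vgll3, a cofactor of TEAD transcription factors, with 1618 B46 reads, and was captured in 7 B30, 5 B41 and 4 B48 libraries. The B48 site is intergenic, 348911 bp from Cadm2, with 1464 B48 reads, and was captured in 5 B30, 5 B41 and 7 B46 libraries. Each printed site was also captured by every other bait. Such sharing is common, since only 21.5% (B41) to 29.8% (B30) of desert sites were captured in no library of a bait.

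Both intergenic sites near Cadm2 and the Vgll3 site lie between 5.82 and 6.38 Mb into the desert. Every bait's top site held at most 0.257% of that bait's desert reads. No molecular identifiers were attached before PCR, so the number of reads at a site is not its number of ligations.

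A further pair of sites, chosen after their values were seen, shows the largest differences between B41 and B48 on one side and B30 and B46 on the other.

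Toward B41 and B48, chr16:81062646-81062711: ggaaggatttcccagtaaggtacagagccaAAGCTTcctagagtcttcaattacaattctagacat
Toward B30 and B46, chr16:77029647-77029712: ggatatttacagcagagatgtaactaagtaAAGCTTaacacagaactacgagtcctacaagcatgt

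The first lies 138266 bp from Ncam2 and was captured in 6 B41 and 7 B48 libraries, with 1052 reads, against 0 B30 and 2 B46 libraries, with 36 reads. The second lies in an intron of Usp25, a deubiquitinating enzyme, and was captured in 5 B30 and 5 B46 libraries, with 205 reads, against 1 B41 and 1 B48 library, with 20 reads. No site was captured in all 14 libraries of B41 and B48 and in none of B30 and B46, or the reverse.

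Over all 7535 sites, 4747 were captured in more libraries of B41 and B48 together than of B30 and B46, 910 in fewer, and 1878 in equal numbers. B41 captured 901 sites (11.96%) in all 7 libraries, B48 612 (8.12%), B46 438 (5.81%) and B30 80 (1.06%). Only 3 sites were captured in all 28 libraries, at positions 62072166, 62299606 and 64682718, all intergenic. At the other end, 1316 sites (17.5%) were captured in none of the 28, and 1250 of these in none of the libraries of the series. These site counts take out neither the distance of a bait from the desert nor its capture rate. Outside the desert and away from the bait, the median library captured 50.4% of sites from B30, 48.3% from B41, 49.5% from B46 and 35.5% from B48. No matching counts are given for the rest of the chromosome, so the counts alone do not set the desert apart from it.

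The first comparison asked whether the desert is contacted more or less often than distance alone would give. The expected number of captured sites came from a log-linear decay with distance, fitted in each library outside the desert and more than 2 Mb from the bait, and the values below are log2 ratios of observed over expected captured sites. B41 and B48 captured the desert above expectation in 7 of 7 libraries each, and B30 captured it below expectation in 7 of 7.

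For B30 the ratio ran from −0.64 through a median of −0.37 to −0.32, with a mean of −0.41 ± 0.11 (SD, n = 7). All libraries were below 0, and library 4 stood apart as the lowest. For B41 the ratio ran from 0.04 through 0.20 to 0.35, with a mean of 0.20 ± 0.13 (SD, n = 7), all above 0. For B48 it ran from 0.12 through 0.27 to 0.30, with a mean of 0.24 ± 0.07 (SD, n = 7), also all above 0. Each of these 3 baits reached an adjusted p of 0.0208 in an exact two-sided sign-flip test, adjusted over 4 baits, and the unadjusted 0.0156 is the smallest that 7 libraries can give.

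B46 did not pass. Its ratio ran from −0.44 through −0.18 to 0.24, with a mean of −0.17 ± 0.24 (SD, n = 7), and 6 of 7 libraries were below 0 (exact sign-flip test, adjusted p = 0.109). Without library 1, the only one above 0, the mean was −0.24 and the adjusted p of the exact test 0.0312. That p follows from the choice of library, since 6 values all below 0 always give the smallest p of this test. As linear folds of the mean the 4 baits stood at 0.754 (B30), 0.886 (B46), 1.15 (B41) and 1.18 (B48) of expectation. Without the libraries that shared many sites, which are 1 of B30, 1 of B41, 2 of B46 and 2 of B48, the means were −0.41, 0.23, −0.22 and 0.25, and each adjusted p of the exact sign-flip test was 0.0625. The differences B30 minus B48, B30 minus B41 and B46 minus B48 were then −0.67, −0.64 and −0.47 (exact permutation tests, adjusted p = 0.00433, 0.00433 and 0.0119). A lowess expectation over all bins, which lets the desert shape its own expectation, brought the means to −0.10 for B30, 0.09 for B41 and 0.14 for B48, each on the same side of 0 and of the threshold.

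**Figure D1:**
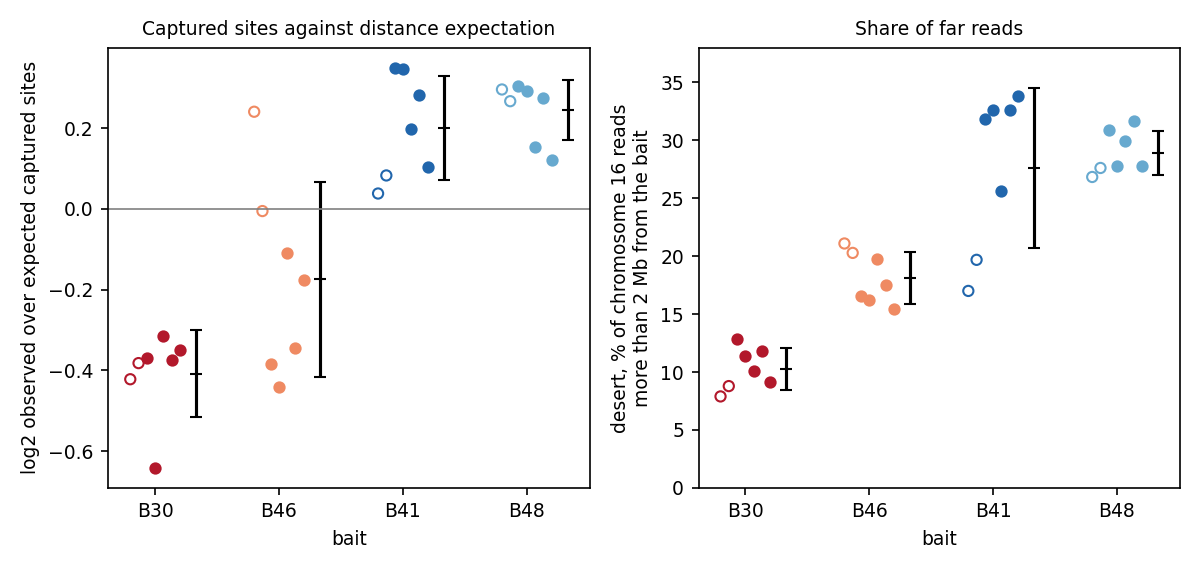
Each point is 1 library (7 per bait), with open circles for libraries under 500000 reads and bars for mean and SD; the left panel plots log2 observed over expected captured sites in the desert, the right panel the desert's percent of chromosome 16 reads more than 2 Mb from the bait. B41 and B48 lie above 0 and B30 below 0 in every library, while B46 spans −0.44 to 0.24.

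Reads gave wider differences than captured sites. The log2 ratio of reads was −0.79 ± 0.19 for B30, −0.38 ± 0.40 for B46, 0.47 ± 0.28 for B41 and 0.51 ± 0.08 for B48 (SD, n = 7 each). The share of desert sites captured ran from 20.7% to 72.5% over the libraries, and a captured site counts once whatever its reads. Why reads differed more was not tested. For B30 the means were −0.40 (sites) and −0.80 (reads) in libraries under 500000 reads, and −0.41 and −0.78 in deeper ones. Thinning every library to 83362 reads on chromosome 16 more than 2 Mb from the bait left the bait means at −0.47, −0.21, 0.25 and 0.28 in the same order.

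The baits were then compared with each other, in 6 pairs. B30 and B41, 10.3 Mb apart, differed by −0.61 ± 0.06 (SE) with no overlap of libraries, and B30 and B48 by −0.65 ± 0.05, also with no overlap (exact permutation tests over libraries, 7 against 7, adjusted p = 0.00175 each). B46 and B48, though 2.76 Mb apart, differed by −0.42 ± 0.10 (SE, exact permutation test, adjusted p = 0.00350). B41 exceeded B46 by 0.37 ± 0.10 (SE, exact permutation test, adjusted p = 0.00787). In both of these pairs the ranges overlapped, through library 1 of B46, a shallow one. B41 and B48 differed by −0.04 ± 0.06 (SE, exact permutation test, adjusted p = 0.446), and the difference between B30 and B46, −0.23 ± 0.10 (SE, exact permutation test, adjusted p = 0.0448), was lost when any of 10 of the 14 libraries was left out and stood at 0.05 with the lowess expectation.

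A share that needs no expectation gave the same order. The desert took 10.3% ± 1.80 of the chromosome 16 reads more than 2 Mb from B30, 18.1% ± 2.22 for B46, 27.6% ± 6.90 for B41 and 28.9% ± 1.88 for B48 (SD, n = 7 each). Libraries of B46 ran from 15.5% to 21.1% and those of B48 from 26.8% to 31.7%, with no overlap (exact permutation test, adjusted p = 0.000874). These shares also carry the distance of each bait from the desert, which the ratios take out. B41 lies farther from the desert than B46, by 4.92 Mb, and still sent the larger share (exact permutation test, adjusted p = 0.0119), with overlap between the 2 baits.

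Read depth divides the libraries of every bait the same way, and the pattern differed with it. In the 5 libraries per bait over 500000 reads the mean log2 ratios were −0.41 for B30, −0.29 for B46, 0.26 for B41 and 0.23 for B48. In the 2 libraries under that depth they were −0.40, 0.12, 0.06 and 0.28. B46 was thus below 0 in 5 of 5 deep libraries, and stood at −0.01 and 0.24 in the shallow ones, where B41 stood at 0.04 and 0.08, so that these 2 baits overlapped there. With reads in place of captured sites the shallow means were −0.80 for B30, 0.11 for B46, 0.08 for B41 and 0.47 for B48. Thinning to 83362 reads, given above, kept the order of the bait means over all 7 libraries, but is not given by depth class. The slope of the fitted decay differed too, from −0.48 to −0.26 in shallow libraries and from −0.31 to −0.02 in deep ones. Depth goes with this slope and with whatever else separates the libraries, at the same boundary for each bait, and the cause was not tested.

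Along the desert, the deep libraries fell into 2 pairs of like profiles. Over its 46 bins, the mean profiles of B30 and B46 had a Pearson r of 0.96 in deep libraries and those of B41 and B48 had 0.92, whereas the 4 cross pairs lay between −0.16 and −0.03. In shallow libraries all 6 pairs lay between 0.53 and 0.84, with 0.73 for B46 and B48. Neighbouring bins share chromatin and all baits share the site map, so these coefficients are descriptions. Over all 7 libraries, r was 0.94 for B30 and B46, 0.87 for B41 and B48, and 0.14 to 0.21 for the others.

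**Figure D2:**
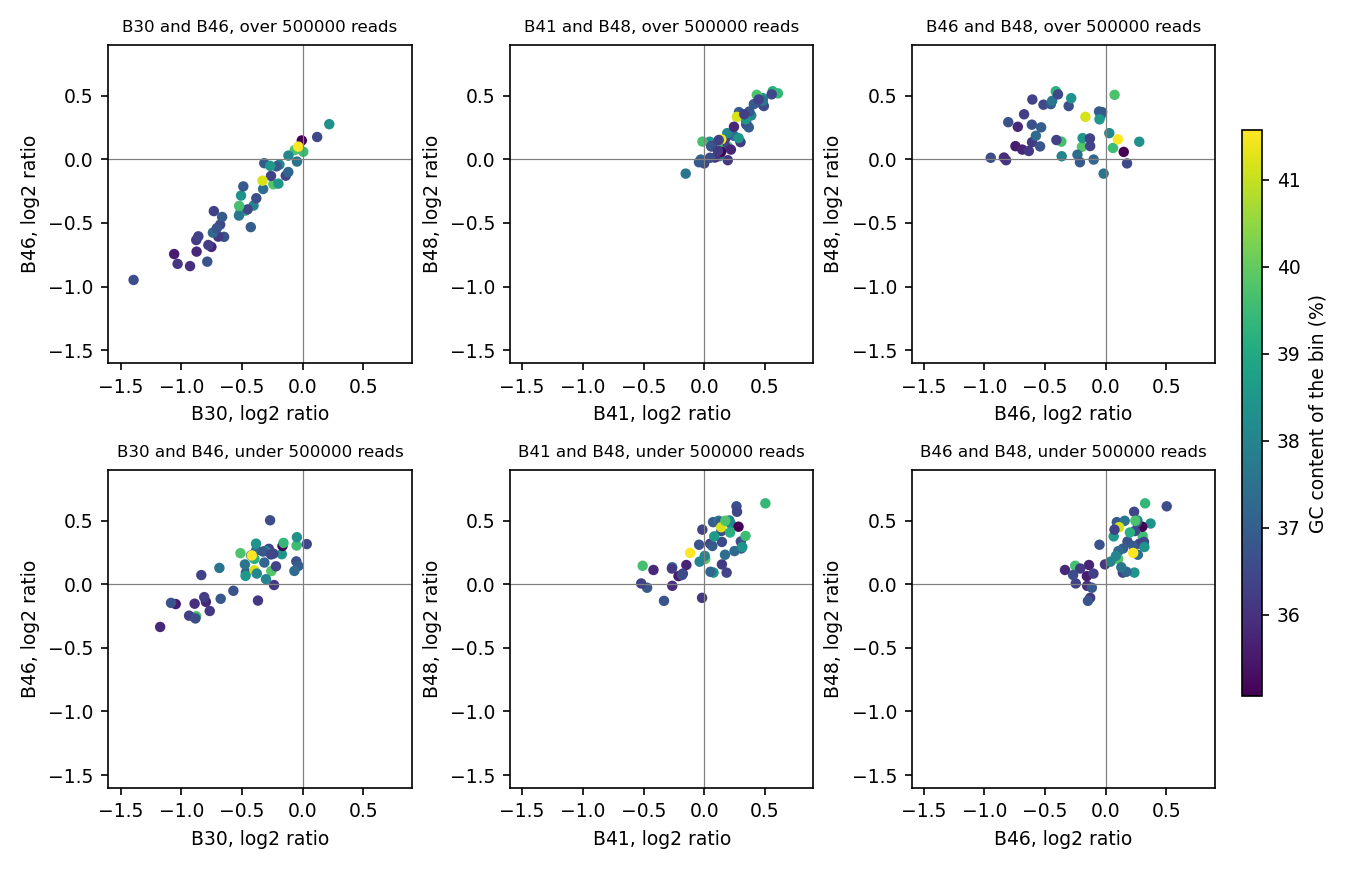
Each point is a 500-kb bin of the desert (46 bins); axes give the mean log2 observed over expected captured sites of 2 baits, in libraries over (upper row, n = 5 per bait) and under (lower row, n = 2 per bait) 500000 reads, coloured by GC content in percent. In deep libraries B46 tracks B30 (r = 0.96) and not B48 (r = −0.03), and in shallow libraries B46 and B48 rise together (r = 0.73).

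Of the 46 bins, B48 was above 0 in 43 by its mean over 7 libraries, B41 in 37, B46 in 11 and B30 in 2. In 26 bins B41 and B48 were both above 0 and B30 and B46 both below, in 2 all 4 were above, in 1 all 4 were below, and in none did the pairs stand the other way round. In the shallow libraries alone, B46 was above 0 in 32 bins and B41 in 29, against 7 and 42 in the deep ones. Outside the desert, bins up to its highest GC were above 0 in 30 of 58 at B48 and 36 of 59 at B41. At B46 it was 22 of 61 and at B30 23 of 67, all by means over 7 libraries. In bins of higher GC the counts were 28 of 78, 26 of 77, 54 of 75 and 49 of 69 in that order. Patterns over the 4 baits were not counted there.

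Single bins were tested with edgeR's quasi-likelihood test on captured sites, each bait against the mean of the other 3, with 157 bins of chromosome 16 in the fit and Benjamini-Hochberg adjustment over the bins of all 4 contrasts. The 4 contrasts share their libraries, so they are not independent of each other. At B30, 41 of 46 desert bins were lower and 0 higher, where 44.6% of all tested bins were lower and 21% higher. At B41, 36 desert bins were higher and 0 lower, against 45.2% higher and 14.6% lower among all tested bins, and at B48, 37 were higher and 0 lower, against 38.9% and 19.7%. These 3 counts are 89.1%, 78.3% and 80.4% of the desert and lie above the background, which includes the desert itself.

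At B46, 20 of 46 desert bins (43.5%) were lower and 0 higher, where 32.5% of tested bins were lower and 23.6% higher, so the desert's share is nearer the background there. The count was 32 in the deep libraries alone and 31 with reads, of which 3 were then higher. The median log2 fold change over the desert bins was −0.54 at B30, 0.34 at B41, −0.18 at B46 and 0.39 at B48, beside −0.13, 0.10, −0.05 and 0.12 over all tested bins. With the lowess expectation the B30 count was 25 bins, 4 of them higher.

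**Figure D3:**
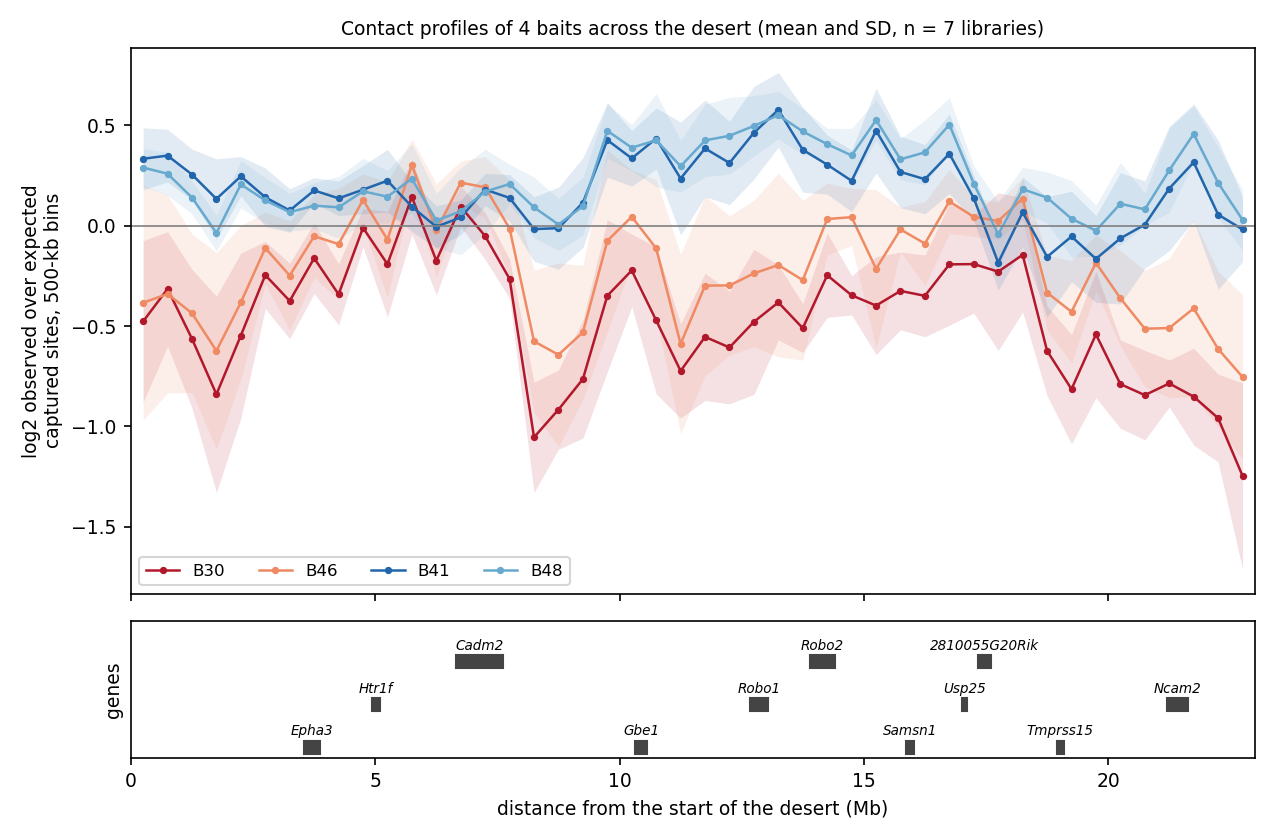
Mean log2 observed over expected captured sites (bands, SD; n = 7 libraries per bait) in 500-kb bins against distance from the desert's start in Mb, with 11 genes to scale below. B41 and B48 peak together in the bin that holds the end of Robo1, at 0.58 and 0.55, and B30 and B46 come to 0.14 and 0.30 in the bin of Pou1f1, Chmp2b and Vgll3, where all 4 baits are above 0.

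The bin that starts at 73000001 and holds the end of Robo1 was the highest of the desert for both B41, at 0.58 ± 0.19, and B48, at 0.55 ± 0.12 (SD, n = 7, 7 of 7 libraries above 0 for each). The median library captured 68.0% of its sites from B41 and 50.9% from B48. Against the other baits it was higher by 0.59 ± 0.10 at B41 and 0.53 ± 0.10 at B48, and lower by −0.71 ± 0.11 at B30 and −0.41 ± 0.11 at B46 (log2, SE, edgeR adjusted p = 9.6e-06, 4.3e-05, 6.8e-06 and 0.0014). Libraries of a bait overlapped those of the others in each of these contrasts. The next highest bins were those starting at 75000001 for both baits (0.47 and 0.53), at 72500001 for B41 (0.46, also Robo1) and at 76500001 for B48 (0.50).

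The highest bin of B30 and B46 lies elsewhere, at 65500001, where Pou1f1 (a pituitary transcription factor), Chmp2b (a membrane remodelling subunit) and Vgll3 cluster. It stood at 0.14 ± 0.19 for B30 and 0.30 ± 0.13 for B46 (SD, n = 7), with 6 and 7 libraries above 0. B41 and B48 were at 0.10 and 0.23 there, and none of the 4 contrasts passed the threshold (edgeR adjusted p = 0.076 to 0.64). The second highest bin of both B30 and B46, at 66500001, is part of Cadm2, at 0.10 ± 0.10 and 0.22 ± 0.11.

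The distal edge of the desert, the bin at 82500001 with no gene, was the lowest for B30, at −1.25 ± 0.46, and for B46, at −0.75 ± 0.41 (SD, n = 7, 0 of 7 above 0 for each). B41 and B48 were near 0 in it, at −0.02 and 0.03. Relative to the other baits it was lower by −0.96 ± 0.14 at B30 and −0.34 ± 0.13 at B46 (SE, edgeR adjusted p = 1.9e-06 and 0.022). Another gene-free bin, at 68000001, stood at −1.05 ± 0.28 for B30. The bin at 77500001 was the lowest for B41 and B48, at −0.18 ± 0.14 and −0.04 ± 0.16.

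Genes were followed by the sites within them, for the 11 that lie wholly inside the desert and span at least 40 HindIII sites. Their mean ratio was above 0 for 11 of 11 genes at B48, 10 at B41, 4 at B46 and 2 at B30, with medians of 0.18, 0.28, −0.09 and −0.29. B41 and B48 thus stood above B46 and B30, as over the whole desert. No matching counts are given for genes elsewhere on the chromosome, so these alone do not set the desert's genes apart.

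Robo1 encodes a receptor for Slit guidance cues and spans 72663394 to 73046340 on the plus strand, with 140 HindIII sites. From B41, 37.9% to 85.7% of these sites were captured (median 67.1%), and from B48 37.1% to 81.4% (median 50.7%). From B30 the range was 17.1% to 47.9% (median 31.4%), and from B46 25.7% to 65% (median 37.9%). Against distance, B41 stood at 0.52 ± 0.20 and B48 at 0.53 ± 0.16, with 7 of 7 libraries above 0 at each, and B30 at −0.41 ± 0.34 and B46 at −0.22 ± 0.42 (SD, n = 7), with 1 and 2 libraries above 0. In the deep libraries the B46 mean was −0.41, and in the shallow ones 0.25, where B41 was at 0.35.

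Robo2, a second receptor of the same family, spans 73892551 to 74412070 on the minus strand with 192 sites. B48 gave 0.46 ± 0.10 and B41 0.29 ± 0.17 with 7 of 7 libraries above 0, B46 gave −0.05 ± 0.22 and B30 −0.36 ± 0.25 (SD, n = 7). The lowest B48 library, at 0.32, lay above the highest of B30, at 0.13, so these 2 baits did not overlap. B46 overlapped both B30 and B41 here.

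Ncam2, a cell adhesion molecule of the immunoglobulin superfamily, spans 81200942 to 81624530 on the plus strand with 133 sites. B30 captured 13.5% to 33.1% of them (median 22.6%) and B41 28.6% to 78.2% (median 55.6%). Its ratio at B30 ran from −0.87 through −0.74 to −0.60, and at B41 from 0.03 through 0.41 to 0.54, with no overlap. B48 ran from 0.25 through 0.34 to 0.54. B46 ran from −0.87 through −0.55 to 0.26, with library 1 the only one above 0. Ncam2 thus had the widest gap of the 11 genes between B30, at −0.74 ± 0.11, and the B41 mean of 0.35 ± 0.20 or the B48 mean of 0.40 ± 0.13 (SD, n = 7).

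The bin that starts at 81500001 and covers part of Ncam2 gave the largest fold change of any desert bin at B48, higher by 0.74 ± 0.11, and was lower by −0.95 ± 0.13 at B30 and −0.39 ± 0.12 at B46 (log2, SE, edgeR adjusted p = 3.3e-06, 8.6e-07 and 0.0066). Tmprss15, the gene of the gut protease enteropeptidase, had the same order with a wider spread, at −0.65 ± 0.34 for B30, −0.28 ± 0.34 for B46, 0.35 ± 0.21 for B41 and 0.39 ± 0.26 for B48 (SD, n = 7, 44 sites).

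Cadm2, another adhesion molecule and the longest gene of the set with 320 sites, did not follow this order. It was above 0 at every bait, at 0.04 ± 0.08 for B30, 0.15 ± 0.06 for B41, 0.22 ± 0.13 for B46 and 0.18 ± 0.19 for B48 (SD, n = 7), with 5, 7, 7 and 7 libraries above 0. The B30 value turned to −0.08 with reads and −0.02 over sites captured in at least 1 library.

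Usp25 stood the other way, at 0.26 ± 0.17 for B46 with 7 of 7 libraries above 0 and −0.33 ± 0.37 for B41 with 2 of 7. B30 was at 0.09 ± 0.50 and B48 at 0.01 ± 0.18, within their spread of 0. The B30 value over 7 libraries was −0.37 with reads. In deep libraries the means were 0.25 for B30, 0.27 for B46, −0.15 for B41 and −0.03 for B48. In shallow ones they were −0.32, 0.24, −0.78 and 0.12. This gene has only 41 sites, the fewest of the set, and the Usp25 intron site printed above is 1 of them.

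The remaining 5 genes were Epha3 (an ephrin receptor kinase), Htr1f (a serotonin receptor), Gbe1 (the glycogen branching enzyme), Samsn1 (an adaptor of blood cells) and 2810055G20Rik. At B41 and B48 their means lay between 0.07 and 0.31 and at B30 between −0.43 and −0.11. At B46 they lay between −0.25 and 0.02. Epha3 showed the smallest spread at B41, 0.28 ± 0.05 (SD, n = 7, 7 of 7 above 0). The value of 2810055G20Rik at B41, 0.18 ± 0.06, turned to −0.11 with reads.

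**Figure D4:**
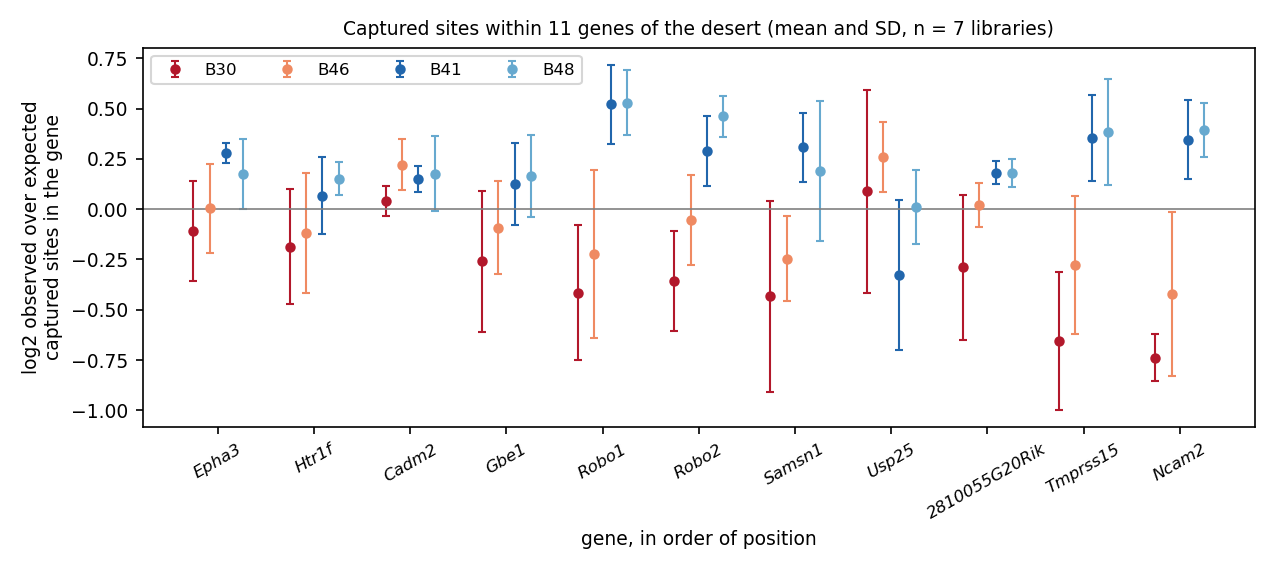
Points give the mean log2 observed over expected captured sites within each of 11 genes and bars the SD (n = 7 libraries per bait), in order of position. B41 and B48 lie above B30 and B46 at Robo1, Robo2, Tmprss15 and Ncam2, the 4 baits lie close together at Cadm2, and B46 is the highest at Usp25.

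Base composition and gene content moved with the profiles of B30 and B46 over all 7 libraries. Inside the desert, Spearman's rho between the ratio and GC content over 46 bins was 0.51 for B30 and 0.52 for B46, against 0.23 for B41 and 0.30 for B48. This contrast stood in the deep libraries, at 0.54 and 0.54 against 0.13 and 0.26, and not in the shallow ones, at 0.24 for B30, 0.37 for B46, 0.29 for B41 and 0.35 for B48. With the number of genes it was 0.57 and 0.56 for B30 and B46, against 0.09 and 0.16. In the rest of the chromosome (136 bins) the GC coefficients of B30 and B46 were alike, at 0.50 and 0.51, while B41 and B48 had the opposite sign, at −0.37 and −0.29. Bins without a gene had a median of −0.61 at B30 (19 bins), against −0.31 with a gene (27 bins), and 0.12 against 0.19 at B41. At B46 these medians were −0.38 and −0.07, and at B48 0.11 and 0.23.

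Bins elsewhere on the chromosome with a GC content within the desert's range gave smaller medians. At B30 the desert's median was −0.39, against −0.16 in 67 such bins, and at B48 0.21 against 0.03 in 58. At B41 it was 0.18 against 0.09 in 59 bins, and at B46 −0.21 against −0.15 in 61. The bins elsewhere entered the fit of the expectation and those of the desert did not. They were chosen by the desert's range of GC content and not matched to its median of 36.9%. The part of GC content in these differences was not tested.

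The desert was next set against the 2 gene-rich ends of the chromosome in the same libraries. Both ends entered the fit of the expectation, and the desert did not. The distal block, from 90 Mb to the end, has 9.26 genes per Mb and lies farther from every bait than the desert. B41 exceeded it in the desert by 0.43 ± 0.16 and B48 by 0.19 ± 0.07 (SD, n = 7), in 7 of 7 libraries each (exact sign-flip test, adjusted p = 0.0312). B30 and B46 had differences of −0.26 ± 0.54 and −0.24 ± 0.39, which did not pass (exact sign-flip test, adjusted p = 0.266 and 0.208).

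Against the proximal block, up to 25 Mb with 11.4 genes per Mb, B30 was lower in the desert by −0.57 ± 0.12 in 7 of 7 libraries and B48 higher by 0.40 ± 0.14 in 7 of 7 (SD, exact sign-flip test, adjusted p = 0.0312 each). B41 was higher by 0.19 ± 0.21, in 5 of 7 libraries, and B46 lower by −0.15 ± 0.29, in 5 of 7 (exact sign-flip test, adjusted p = 0.0833 and 0.203). The proximal block includes the bin at 3000001, of which 10% is unsequenced. Its ratios were −3.95 for B30, −3.04 for B41, −4.05 for B46 and −3.93 for B48.

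Baits on other chromosomes see the desert with no distance to take out. For the 6 baits of chromosome 8 the expected number of captured sites was taken from the desert's share of HindIII sites outside chromosome 8. The 70 libraries became 64 when technical replicates were summed. By title they span G0, G2, mitosis and times after release, and B87 and B118 lack a mitosis library. Each SD below therefore spans stages, and the mix of stages differs between baits. Bait means ran from −0.57 to −0.003, with B87 at −0.57 ± 0.32 (n = 10), B26 at −0.35 ± 0.12, B7 at −0.19 ± 0.14, B44 at −0.18 ± 0.14, B118 at −0.18 ± 0.15 (n = 10) and B53 at −0.003 ± 0.22 (SD, n = 11 where not given). Of the 64 libraries, 55 were below 0.

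Over the 6 baits the mean was −0.25 ± 0.19 (SD), with 0 of 6 above 0 (exact two-sided sign-flip test, p = 0.0312, the smallest that 6 baits can give). This rests on B53, of whose 11 libraries 7 were above 0. Without its lowest library, at −0.57, its mean was 0.05, and the test over 6 baits gave p = 0.0625 (exact sign-flip test) at a mean of −0.24. Leaving out any 1 bait gave means from −0.30 to −0.18, and 5 baits cannot give a p under 0.0625 in this exact test. Within chromosome 16 alone, the desert against its sites gave a mean of −0.26 ± 0.17, with 0 of 6 baits above 0. Both expectations count every HindIII site, also the 1250 of 7535 in the desert that no library of the series captured. No such share is given for other stretches. These ratios alone therefore do not separate fewer contacts from fewer sites open to capture.

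Depth in trans was low. Desert sites captured per library ran from 13 to 969, and B87, the lowest bait, had 13 to 315. At 2 baits of chromosome 17, located by their reads with 4 libraries each, the ratio ran from −0.52 to −0.02 for B50, with 0 of 4 above 0 and a mean of −0.32 ± 0.22 (SD). For B76 it ran from −0.19 to 0.30, with 2 of 4 above 0 and a mean of 0.02 ± 0.23 (SD). Both sets overlapped the chromosome 8 libraries.

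**Figure D5:**
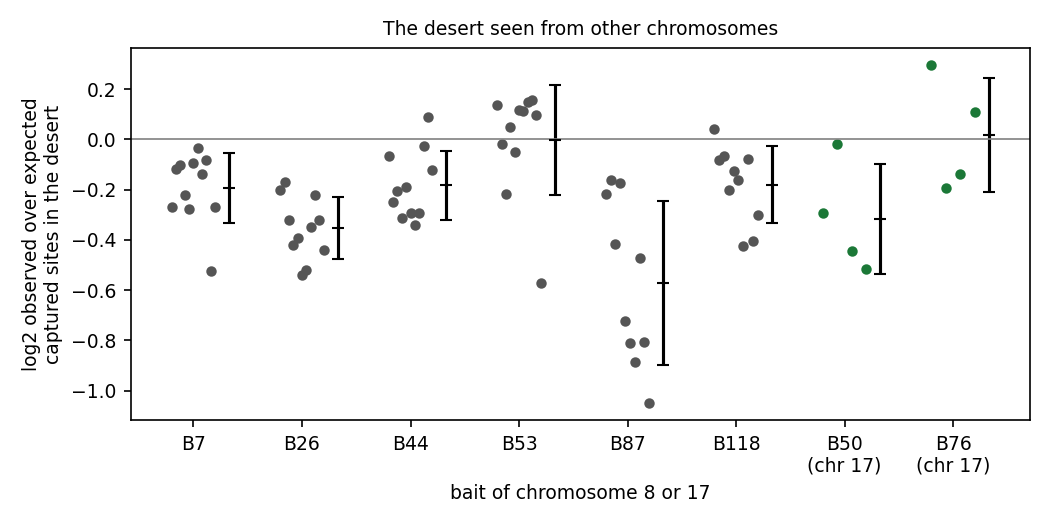
Each point is 1 library of a bait on chromosome 8 (grey, 10 or 11 per bait) or chromosome 17 (green, 4 per bait), with bars for mean and SD; the axis gives log2 observed over expected captured sites in the desert, expected from its share of HindIII sites on other chromosomes. Libraries of B87 run lowest, to −1.05, and those of B53 and B76 lie on both sides of 0.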

How the data were processed

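The authors deposited 4C-seq libraries as raw counts of reads at each HindIII site. BWA 0.5.9 and mm9 are named in the submitters' processing notes, and read filters are not given in the sources used here. Table positions equalled the HindIII sites of mm9 on chromosomes 8, 16 and 17, and gene names came from GENCODE models on that build. Columns titled for chromosome 16 or 17 or 1.5 h were grouped by the bait with most reads inside a 100-kb distance. The members, gene lists and tests were chosen with earlier results of these data known. Named genes lie wholly inside the desert and span at least 40 HindIII sites; named bins are the 3 highest and 3 lowest per bait, and bins past the threshold discussed beside these genes.

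Captured sites (1 read or more) in 500-kb bins more than 2 Mb from the bait were set against a log-linear decay fitted per library outside the desert (pseudocount 0.5 for bins). Bins more than 2 Mb from every bait were tested with edgeR 4.0.16 in R 4.3.3, with log expected numbers as offset and an adjusted p under 0.05. On simulated data for B41 with 158 bins, 40 of them changed, it recovered 75% of 1.5-fold and 100% of 2-fold changes. The simulated counts had a preset spread and no ceiling at the number of sites in a bin, so these rates may not hold for real counts. DESeq2 1.42.0 was an alternative. Python 3.11.15 with scipy 1.17.1 and statsmodels 0.14.6 served for the rest. Alternatives changed the expectation, bin size, depth and libraries; 5 were added after the data were seen (a complementary log-log expectation, thinning to the same number of reads, libraries over 500000 reads, far-read shares and the trans comparison within chromosome 16). Total reads per library were 182669 to 3301246. No column of per-sample values was left unmapped.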

Additional observations from a re-analysis of the deposited data

Results flagged for a closer look

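Of 54 groups of 4 to 10 libraries examined for a value far from the rest, 1 stood out. Chance gives about 1 in 20, so 1 of 54 is no more than chance gives. The value that stood out is library 4 of B30. The desert log2 ratio of this library, −0.64, lay below the other 6, which were between −0.42 and −0.32. Its gap to the next library was 0.673 of the whole range. Without it the difference between B30 and B46 was −0.19.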

How the results depend on the processing

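B41, B48 and B30 kept their direction in each alternative run. With libraries over 500000 reads (means −0.41, 0.26 and 0.23 for B30, B41 and B48), or without libraries that share many sites (−0.41, 0.23 and 0.25), the adjusted p was 0.0625, since fewer libraries enter the exact test. B46 passed the threshold with the lowess expectation (−0.15) and with the decay shape of the chromosome 8 baits (−0.18). With 1 library left out its mean ran from −0.24 to −0.13, and it passed in 1 of 7 cases, without library 1. That case leaves out the only library above 0, which fixes the outcome of the exact test. B30 minus B46 turned to 0.050 with lowess and did not pass with the chromosome 8 shape (−0.067), beyond 5 Mb (−0.19), in 1-Mb bins (−0.22), with complementary log-log (−0.26), without libraries that share many sites (−0.19) or over 500000 reads (−0.12), and ran from −0.28 to −0.16 with 1 library left out; the cause was not tested. B41 minus B48 was 0.11 with the chromosome 8 shape and 0.027 over 500000 reads. The other 4 pairs kept their calls in each alternative. Bins called at B46 numbered 31 with reads and 32 over 500000 reads, and 15 to 27 with 1 library left out, and at B30 25 with lowess. The trans mean was −0.24 with at least 2 reads and −0.24 with reads, each at p = 0.0625 in the exact sign-flip test. Of 396 gene values under alternatives, 39 moved by more than 1 SD and 22 changed sign, all at genes within 0.182 of 0. No paired analysis was possible because the titles of these libraries are not used, so replicate numbers pair nothing. The 2 shallow libraries per bait limit what can be said of depth.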
